A study of Mus musculus with 12 samples.

Results

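The nuclear-encoded respiratory chain was followed complex by complex in B cells isolated from mouse bone marrow, of 2 genotypes and after culture in hypoxia or normoxia. Its members were chosen by name alone, as genes for subunits of complexes I to V and cytochrome c. Of the 46983 genes in the count table, 94 carried such a symbol. Left out were 10 pseudogenes, the isoform genes Cox7b2, Cox8b and Cox8c, which stayed under 10 counts in every library, and Ndufa4l2, which the naming rule excluded. The 80 remaining genes comprised 7 core and 28 accessory subunits of complex I, 4 subunits of complex II, 9 of complex III, cytochrome c itself (Cycs), 14 of complex IV and 16 of complex V. The last of the 80 was Atp5s, which carries an ATP synthase symbol but does not encode a subunit of the enzyme. All 80 passed the filter on low counts.

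The respiratory chain passes electrons from NADH (through complex I) and succinate (through complex II) to ubiquinone, complex III, cytochrome c and, in complex IV, to oxygen. Complexes I, III and IV pump protons across the inner mitochondrial membrane, and complex V, the ATP synthase, uses the return flow to make ATP. A small set of subunits is made in the mitochondrion from its own DNA, and the genes followed here are the nuclear ones, whose products are imported. HIF-1, a transcription factor stabilised when oxygen is low, is known in other cells to induce glycolytic genes and to exchange a few respiratory subunits for other isoforms.

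KO mice carried floxed Hif1a alleles and a Cre recombinase inserted in the Cd79a (Mb1) locus, which is active in the B lineage. WT controls were floxed littermates without Cre or littermates with Cre and no floxed allele, and the labels do not say which library is which. B cells were isolated by magnetic sorting and put in culture, and 3 libraries of total RNA were sequenced for each of KO hypoxia, KO normoxia, WT hypoxia and WT normoxia. No source used here says that the libraries are separate mice, so the p-values measure the spread between these libraries, which may be partly technical. Hif1a read counts cover the whole gene and were not lower in KO libraries. KO minus WT log2 fold change was 0.46 ± 0.10 in hypoxia (adjusted p = 0.0132) and 0.31 ± 0.10 in normoxia (adjusted p = 0.402). Without counts by exon the deleted part could not be read apart, so these values do not check the deletion. Why they were not lower was not tested. Cd79a, which holds the Cre, was lower in KO libraries in hypoxia (-0.93 ± 0.10, adjusted p = 0.000169) and in normoxia (-1.02 ± 0.10, adjusted p = 0.000984).

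Each library held 27629175 to 36880082 gene counts, of which the 80 genes took 0.534% to 0.749%. Levels below are CPM (counts scaled to a common library size), normalised by trimmed mean of M values, differences are log2 fold changes ± SE from 3 libraries a group, and a gene is called when its edgeR quasi-likelihood p, adjusted by Benjamini-Hochberg over all 17506 genes tested, is under 0.05. B-lineage markers summed to 5900 to 6193 CPM in KO hypoxia, 6806 to 7547 CPM in KO normoxia, 6583 to 7339 CPM in WT hypoxia and 7538 to 8796 CPM in WT normoxia libraries. T and NK cell markers summed to 51.9 to 61.3 CPM in KO hypoxia, 207.5 to 226.2 CPM in KO normoxia, 67.4 to 83.8 CPM in WT hypoxia and 188.7 to 249.7 CPM in WT normoxia libraries. Neutrophil markers summed to 2783 to 4030 CPM in KO hypoxia, 1174 to 3964 CPM in KO normoxia, 3490 to 6388 CPM in WT hypoxia and 2444 to 5126 CPM in WT normoxia libraries. Monocyte and macrophage markers summed to 974.6 to 1619, 1171 to 1881, 1608 to 2261 and 1860 to 2280 CPM in the same order of groups. The part of these marker levels in the members' changes was not tested beyond fits with monocyte and neutrophil covariates. In bulk RNA, fewer cells of a type and less RNA per cell cannot be told apart. Y-linked genes gave 310 to 396.3 CPM in WT replicates 1 and 2 under both conditions, 46.0 CPM in KO hypoxia replicate 1 and 0 in the other libraries, so the WT groups mixed libraries with and without Y-linked reads. Xist had 18 to 21 counts in WT replicates 1 and 2, 49456 and 77454 in WT replicate 3, and 42109 to 59463 in KO libraries. Genotype was thus confounded in part with this difference, which may reflect sex, and the 2 cannot be fully told apart.

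Libraries also stood apart by transcript length, which touches these genes more than most because they are short: the members' median coding transcript was 743.5 bases, against 2381 bases over all genes tested. In WT normoxia replicate 2, genes with transcripts under 600 bases lay 0.36 log2 units above their group mean, and in WT normoxia replicate 3 they lay 0.29 units below it (-0.29). Genes over 5000 bases deviated the other way, by -0.22 and 0.18. WT hypoxia replicates 2 and 3 showed the same pattern more weakly, at 0.13 and -0.13 for the short genes, and the KO libraries lay within 0.09 of their means. The members followed: their summed level was 7734 CPM in WT normoxia replicate 2, 6343 in replicate 1 and 5480 in replicate 3. The result of each WT comparison is therefore given also without these libraries and with a length term.

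**Figure D1:**
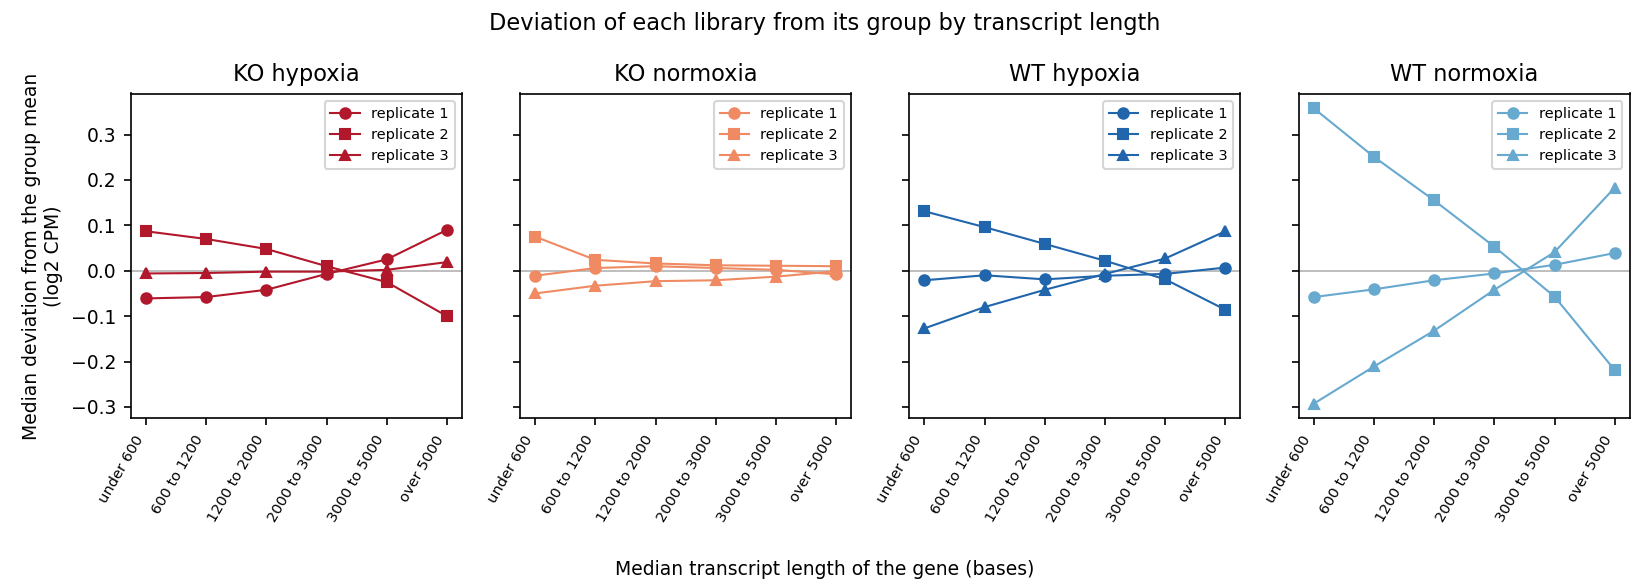
Median deviation of genes from their group mean (log2 CPM) by coding transcript length, 1 line per library, with the groups KO hypoxia, KO normoxia, WT hypoxia and WT normoxia in separate panels. WT normoxia replicates 2 and 3 diverge for short genes, at 0.36 and -0.29 under 600 bases, where 26 of the 80 members lie.

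Levels of the members spanned a wide range. Per kilobase of exon, Cox7a2l, a factor that joins complexes III and IV, was highest at 191.9 CPM per kb as the mean of 12 libraries, followed by Cox8a at 184.3, Atp5a1 at 178.4, Cox6a1 at 157.2 and Atp5b at 141.2. Atp5a1 and Atp5b encode the catalytic head of the ATP synthase. Ndufb2, a small membrane-arm subunit of complex I, was lowest at 1.79 CPM per kb. Lengths here were unions of all annotated exons, 5628 bases for Ndufb2, so values per kilobase depend on the annotation. In CPM alone Cox7a1 was lowest at 1.63, and Ndufb2 had 10.07. The median level per kilobase was 25.0 for complex I core, 24.2 for complex I accessory, 42.2 for complex II, 40.2 for complex III, 47.4 for complex IV and 39.8 for complex V genes. The level of a member told little of its change: over the 80 genes, Spearman's rho between mean CPM and log2 fold change was 0.07 for the KO and -0.03 for the WT response to hypoxia (a description across genes of the same libraries).

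The first question was how each genotype's chain genes responded to hypoxia. In KO cells, 10 of the 80 genes (12.5%) fell and 1 (1.25%) rose, against 15.7% and 14.5% of all genes tested. This share of falling members, below that of all genes by group means, was above it in fits chosen after seeing the data: 22.5% against 17.2% with an offset for transcript length, 28.8% against 18.8% with a replicate block within genotype and 30% against 19.1% with both. Further fits went both ways. DESeq2 gave 10 of the 80 lower (13.9% of all genes) and monocyte and neutrophil covariates 3 (11.1%). A covariate for Y-linked reads gave 16 (16.6%). In WT cells, 21 (26.2%) fell and 3 (3.75%) rose, against 16.3% and 11.4% of all genes. The median log2 fold change of the members was -0.14 in KO cells and -0.28 in WT cells (all genes: 0.04 and 0.01), and 60 and 70 of the 80 values were negative. Called decreases ran from -0.65 (Cox6a2) to -0.29 (Ndufs3) in KO cells and from -0.96 (Ndufa4) to -0.27 (Ndufs1) in WT cells, and in WT cells those of Ndufa4, Cycs, Atp5g1 and Ndufv1 were the largest. Hypoxia libraries lay wholly below normoxia libraries for 35 members and wholly above for 5 in KO cells (24.8% and 24.1% of all genes), and for 21 and 3 in WT cells (20.8% and 19.5% of all genes). Because same-numbered WT libraries of the 2 conditions deviated together, which KO libraries were not shown to do, the response was also fitted with the replicate number as a block within each genotype. Under that block 42 members fell and 4 rose in WT cells, against 19.6% and 14.7% of all genes.

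**Figure D2:**
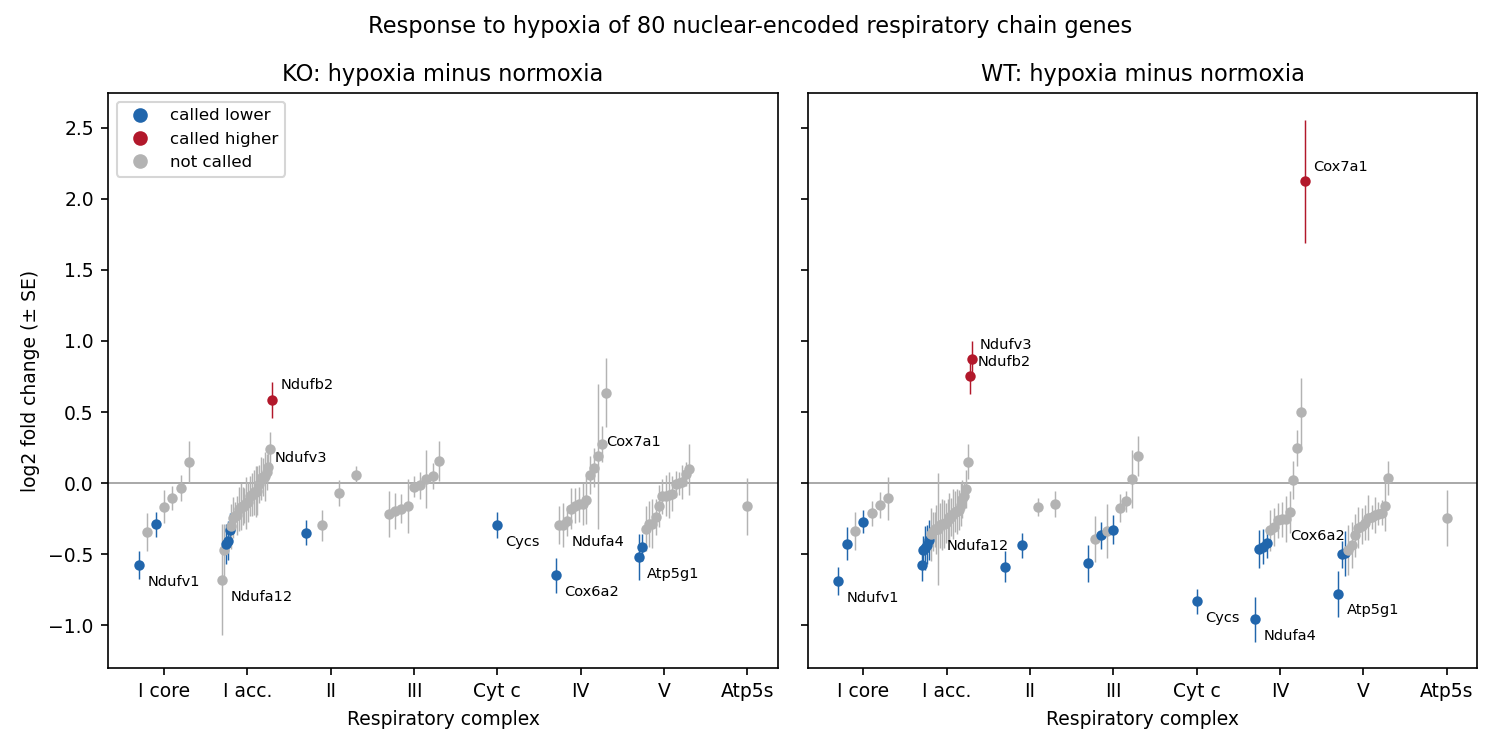
Log2 fold change (hypoxia minus normoxia) ± SE of each of the 80 genes, by complex, in KO cells (left panel) and WT cells (right panel), n = 3 libraries a group, with genes called lower in blue, called higher in red and the others in grey. Values lie below 0 for 60 genes in KO cells and 70 in WT cells, and Cox7a1 stands alone at 2.12 in WT cells.

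The WT count depended on single libraries. It was 12 without WT hypoxia replicate 1 or 3, 15 without WT normoxia replicate 2 and 58 without WT normoxia replicate 3. The shares of all genes called in these fits are not given here, so these counts are not set against genes at large. In these fits the members' median lay between -0.13 and -0.43, and that of all genes between -0.0117 and 0.00865. With an offset for transcript length the count was 32 (18.1% of all genes lower), and with that offset and the block 42 (20.3% of all genes lower). Other genes within the same limits of length and level were set beside the members. By group means in WT cells, 24.3% of the 70 members with transcripts under 2000 bases and at least 8 CPM fell, against 29.4% of 2776 other genes within those limits. The limits did not match lengths, since 26 members and 102 of the other genes had transcripts under 600 bases. With the block the shares were 52.9% and 37.4%, and with block and length offset 51.4% and 32.7%. In KO cells the corresponding shares were 10% and 24.6% by group means, 28.6% and 31.0% with the block, and 30.0% and 27.6% with both. The share of members that fell was thus below or above that of the other genes depending on the fit. The members' medians lay below those of the other genes in each fit (-0.28 against -0.16 in WT, -0.15 against -0.08 in KO by group means, and -0.22 against -0.08 and -0.13 against -0.03 with both terms). In narrower length bins by group means this held in WT cells, but KO members of 1200 to 2000 bases lay above the others (-0.0741 against -0.0861). The WT shares also split by bin. Under 600 bases 8 of 26 members fell, at 600 to 1200 bases 3 of 29 and at 1200 to 2000 bases 6 of 15. The other genes gave 16.7%, 26.6% and 31.6%.

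**Figure D3:**
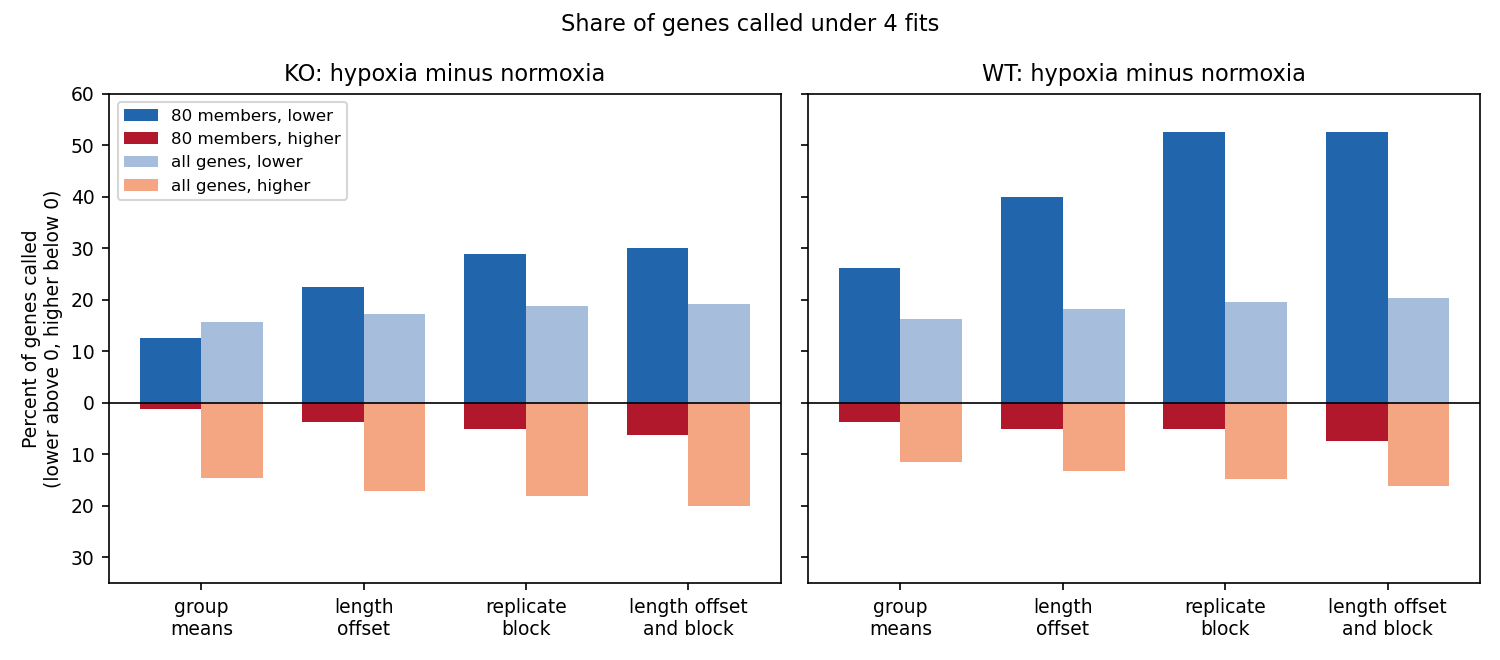
Percent of the 80 members and of all genes tested called lower (drawn above 0) or higher (drawn below 0) in hypoxia under 4 fits: group means, length offset, replicate block within genotype, and both, in KO cells (left) and WT cells (right). The members called lower in WT cells number 21, 32, 42 and 42 of 80 across the 4 fits, and 10, 18, 23 and 24 in KO cells.

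Complex I is built from a NADH-oxidising module, a quinone-reducing module and a proton-pumping membrane arm. In KO cells 5 of its 35 genes fell (14.3%) and 1 rose (2.86%), against 15.7% and 14.5% of all genes. In WT cells 8 fell (22.9%) and 2 rose (5.71%), against 16.3% and 11.4% of all genes. The medians were -0.14 in KO and -0.27 in WT cells. By module the WT calls were 3 of 10 lower and 1 higher in the NADH module, 1 of 5 lower in the quinone module and 4 of 20 lower and 1 higher in the membrane arm. Ndufv1 (ENSMUSG00000037916, GRCm38 chr19:4007384-4012806), the core subunit that binds FMN and takes electrons from NADH, gave 40.4, 44.2 and 46.3 CPM in KO hypoxia libraries, against 62.4, 66.1 and 66.5 CPM in KO normoxia libraries. It gave 45.6, 44.3 and 41.6 CPM in WT hypoxia libraries, against 70.5, 80.8 and 60.6 CPM in WT normoxia libraries. In both genotypes no hypoxia library reached any normoxia library, and Ndufv1 fell in KO (-0.57 ± 0.10, adjusted p = 0.000705) and in WT cells (-0.69 ± 0.10, adjusted p = 0.000198). Both Ndufv1 calls held under every setting tried, as did, among called decreases, those of Cox6a2 and Atp5g2 in KO cells and of Cycs in WT cells.

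Among the other core genes, Ndufs8, which carries iron-sulphur clusters near the quinone site, had 66.5, 74.0 and 70.2 CPM in KO hypoxia libraries, against 77.9, 79.6 and 78.8 CPM in KO normoxia libraries. In WT cells it had 62.8, 73.2 and 63.9 CPM in WT hypoxia libraries, against 87.7, 108.8 and 72.1 CPM in WT normoxia libraries. The WT groups overlapped, since WT normoxia replicate 3 lay below WT hypoxia replicate 2, and Ndufs8 was called in WT (-0.43 ± 0.12, adjusted p = 0.0169) but not in KO cells (-0.17 ± 0.12, adjusted p = 0.321). Ndufs1, the large iron-sulphur core subunit of the NADH module, had 60.5, 60.6 and 60.9 CPM in KO hypoxia libraries, against 67.9, 61.1 and 66.6 CPM in KO normoxia libraries, and 55.6, 59.1 and 51.6 CPM in WT hypoxia libraries, against 67.6, 72.4 and 60.6 CPM in WT normoxia libraries. It was called lower in WT cells (-0.27 ± 0.08, adjusted p = 0.0246), where the groups did not overlap, whereas KO cells gave -0.11 ± 0.08, adjusted p = 0.359. Ndufs3, a core subunit of the quinone module, fell in KO cells (-0.29 ± 0.09, adjusted p = 0.0235) and gave -0.21 ± 0.09, adjusted p = 0.0878 in WT cells. The WT call was lost for Ndufs8 without WT hypoxia replicate 1 or 3 (adjusted p = 0.0617 and 0.0505) and for Ndufs1 without WT hypoxia replicate 1 or 3 or WT normoxia replicate 1 or 2 (adjusted p from 0.0541 to 0.0773). The KO call of Ndufs3 was lost without KO hypoxia replicate 1 or 3 or KO normoxia replicate 1 or 2 (adjusted p from 0.052 to 0.109).

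Of the 28 accessory genes, Ndufs4, Ndufc2 and Ndufa10 fell in both genotypes, and Ndufa9 and Ndufs5 were called lower in WT cells only by this test, which does not show that the genotypes differ. Ndufa10, in the membrane arm, had 49.3, 46.5 and 47.3 CPM in KO hypoxia libraries, against 62.4, 59.3 and 58.2 CPM in KO normoxia libraries. Its WT levels were 44.8, 49.8 and 42.3 CPM in WT hypoxia libraries, against 66.3, 82.2 and 55.3 CPM in WT normoxia libraries. Ndufa10 fell in both, with -0.33 ± 0.12, adjusted p = 0.0472 in KO and -0.57 ± 0.12, adjusted p = 0.00267 in WT cells. The KO calls of Ndufs4, Ndufc2 and Ndufa10 did not survive the loss of any of the 6 KO libraries (adjusted p from 0.0587 to 0.158). In WT cells the Ndufa10 and Ndufa9 calls held without each library, while those of Ndufc2 and Ndufs5 were lost without any WT hypoxia library or WT normoxia replicate 2 (adjusted p from 0.0511 to 0.127), and that of Ndufs4 without any of 9 libraries (adjusted p from 0.0507 to 0.166). Ndufa12, an accessory subunit added late in assembly, had the widest spread of the complex, with 16.5, 8.06 and 7.64 CPM in KO hypoxia libraries, against 23.2, 20.5 and 7.84 CPM in KO normoxia libraries, and its change in KO cells (-0.68 ± 0.39) was within that spread (adjusted p = 0.217).

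By group means, 2 accessory genes were called higher in WT cells (7.14%, against 11.4% of all genes), against the direction of the complex. Of these, 1 was also called higher in KO cells (3.57%, against 14.5% of all genes). Ndufb2 (ENSMUSG00000002416, chr6:39592574-39603382) had 11.8, 13.3 and 12.2 CPM in KO hypoxia libraries, against 8.68, 8.57 and 7.56 CPM in KO normoxia libraries. It had 12.7, 11.9 and 12.3 CPM in WT hypoxia libraries, against 7.20, 6.19 and 8.48 CPM in WT normoxia libraries. Every hypoxia library was above every normoxia library, and Ndufb2 rose in KO (0.59 ± 0.13, adjusted p = 0.00389) and in WT cells (0.75 ± 0.13, adjusted p = 0.000759). Its gene span overlaps that of Braf on the opposite strand by 146 bases, and without a stated strand setting reads there cannot be assigned. Ndufv3 (ENSMUSG00000024038, chr17:31520115-31531331), an accessory subunit of the NADH module, had 26.1, 27.5 and 33.0 CPM in KO hypoxia libraries, against 27.2, 27.6 and 27.3 CPM in KO normoxia libraries. The KO conditions overlapped. In WT cells it had 60.3, 58.6 and 51.0 CPM in WT hypoxia libraries, against 28.9, 37.2 and 26.6 CPM in WT normoxia libraries, with every hypoxia library above every normoxia library. Ndufv3 rose in WT cells (0.87 ± 0.13, adjusted p = 0.000217) and gave 0.08 ± 0.13, adjusted p = 0.683 in KO cells. Ndufa6, another accessory gene, had every KO hypoxia library above every KO normoxia library (0.24 ± 0.12, adjusted p = 0.159) and was called higher in KO cells under the block within genotype, with or without the length offset.

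Complex II oxidises succinate and is also part of the citric acid cycle. Its summed level was 403.1 ± 18.7 CPM in KO hypoxia against 427.7 ± 15.3 in KO normoxia, and 370.0 ± 1.15 in WT hypoxia against 450.3 ± 43.5 in WT normoxia libraries (SD, n = 3). Of its 4 genes 1 fell in KO (25%) and 2 fell in WT cells (50%), against 15.7% and 16.3% of all genes. Sdhb, the iron-sulphur subunit, had 62.8, 80.9 and 72.4 CPM in KO hypoxia libraries, against 86.7, 92.5 and 86.2 CPM in KO normoxia libraries. In WT cells it had 61.8, 65.9 and 63.2 CPM in WT hypoxia libraries, against 96.1, 110.0 and 81.2 CPM in WT normoxia libraries. Sdhb fell in WT cells (-0.59 ± 0.11, adjusted p = 0.0013), and the KO change, though its groups did not overlap, was just outside the threshold (-0.30 ± 0.11, adjusted p = 0.0543) and inside it with the length offset (-0.23 ± 0.07, adjusted p = 0.0275). Sdhc, a membrane anchor, had 43.9, 48.6 and 47.8 CPM in KO hypoxia libraries, against 57.4, 65.1 and 56.1 CPM in KO normoxia libraries, and 50.1, 48.8 and 46.1 CPM in WT hypoxia libraries, against 63.8, 73.0 and 59.7 CPM in WT normoxia libraries. It fell in both genotypes, with -0.35 ± 0.09, adjusted p = 0.0106 in KO and -0.44 ± 0.09, adjusted p = 0.00272 in WT cells, though the KO call was lost without KO hypoxia replicate 1 (adjusted p = 0.0568) or KO normoxia replicate 2 (adjusted p = 0.07). Sdha, the flavoprotein, gave 0.06 ± 0.06, adjusted p = 0.508 in KO and -0.17 ± 0.06, adjusted p = 0.0571 in WT cells.

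Complex III showed no called change in KO cells (median -0.02, range -0.22 to 0.15), while 3 of its 9 genes (33.3%) fell in WT cells (median -0.33). Of all genes, 15.7% fell in KO and 16.3% in WT cells. Uqcrq, a small subunit at the quinone-binding side, had 39.5, 38.8 and 40.4 CPM in KO hypoxia libraries, against 47.2, 48.5 and 40.3 CPM in KO normoxia libraries. In WT libraries it had 32.8, 37.0 and 36.5 CPM in WT hypoxia libraries, against 47.6, 65.6 and 44.2 CPM in WT normoxia libraries. Uqcrq fell in WT cells (-0.57 ± 0.13, adjusted p = 0.00547) and gave -0.20 ± 0.13, adjusted p = 0.274 in KO cells, where the groups overlapped. Cyc1, the haem subunit that hands electrons to cytochrome c, had 85.9, 94.9 and 91.7 CPM in KO hypoxia libraries, against 88.7, 87.5 and 87.1 CPM in KO normoxia libraries, so that the KO conditions overlapped. Its WT levels were 69.4, 76.7 and 73.8 CPM in WT hypoxia libraries, against 95.0, 108.1 and 80.7 CPM in WT normoxia libraries. Cyc1 fell in WT cells (-0.37 ± 0.09, adjusted p = 0.00949) and gave 0.05 ± 0.09, adjusted p = 0.724 in KO cells. Uqcrc1, a core protein of the matrix side, had 112.4, 124.0 and 117.2 CPM in KO hypoxia libraries, against 131.3, 136.7 and 132.6 CPM in KO normoxia libraries, and 109.7, 126.2 and 111.0 CPM in WT hypoxia libraries, against 141.7, 170.3 and 123.2 CPM in WT normoxia libraries. WT normoxia replicate 3 lay below WT hypoxia replicate 2, and Uqcrc1 was called lower in WT (-0.33 ± 0.10, adjusted p = 0.0283) but not in KO cells (-0.18 ± 0.10, adjusted p = 0.2). That call was lost without WT hypoxia replicate 1 or 3 or WT normoxia replicate 1 or 2 (adjusted p from 0.0551 to 0.0901).

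Cytochrome c is the mobile carrier between complexes III and IV and, once released into the cytosol, a trigger of apoptosis. Cycs (ENSMUSG00000063694, chr6:50562563-50566538) had 40.7, 46.8 and 39.4 CPM in KO hypoxia libraries, against 52.3, 53.4 and 50 CPM in KO normoxia libraries. It had 30.3, 32.2 and 31.4 CPM in WT hypoxia libraries, against 55.7, 60.8 and 50.6 CPM in WT normoxia libraries. The WT hypoxia libraries were the 3 lowest of the 12, and both pairs of conditions were free of overlap. Cycs fell in KO (-0.30 ± 0.09, adjusted p = 0.0228) and in WT cells (-0.83 ± 0.09, adjusted p = 1.96e-05), which is a loss of 43.8% of the level in WT cells. The KO call was lost under 6 of the settings, among them leaving out KO hypoxia replicate 1 or 3 or KO normoxia replicate 1 or 2 (adjusted p from 0.0828 to 0.111).

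**Figure D4:**
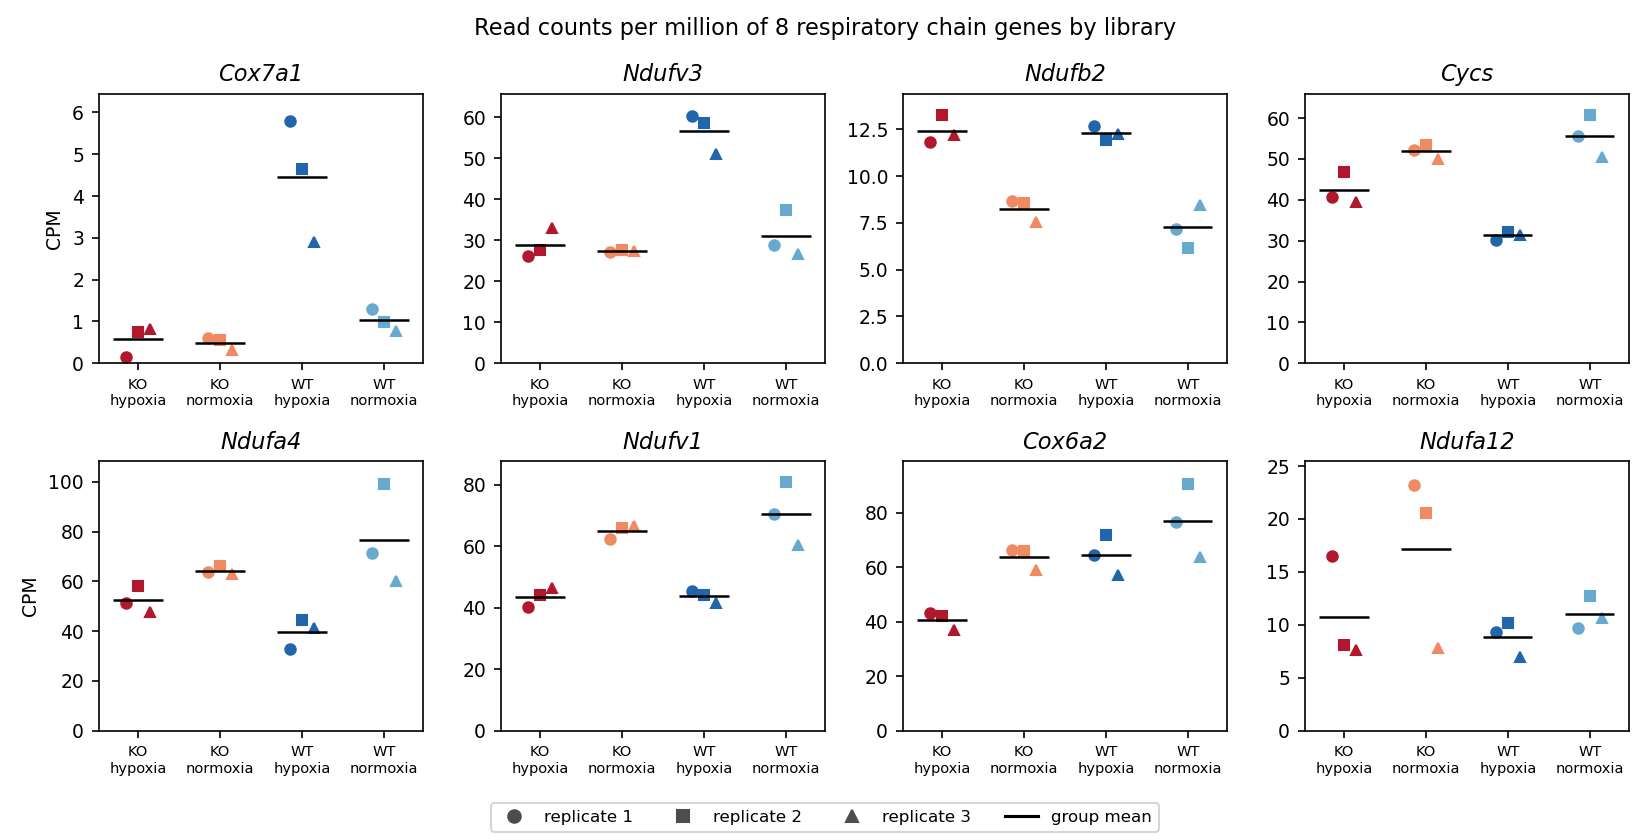
CPM of 8 member genes in each library, in the order KO hypoxia, KO normoxia, WT hypoxia and WT normoxia, with the group mean as a line and symbols for replicates. Cox7a1 and Ndufv3 are high in WT hypoxia libraries, at 2.90 to 5.80 and 51.0 to 60.3 CPM, and Cycs is lowest there, at 30.3 to 32.2 CPM.

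Complex IV, which reduces oxygen, is the complex with the most alternative subunit isoforms. Of its 14 genes 1 fell in KO cells (7.14%, against 15.7% of all genes). In WT cells 4 fell (28.6%) and 1 rose (7.14%), against 16.3% and 11.4% of all genes. Ndufa4 (ENSMUSG00000029632, chr6:11900292-11907497), named as a complex I subunit but now placed in complex IV, had 51.3, 58.0 and 47.7 CPM in KO hypoxia libraries, against 63.7, 66.0 and 62.9 CPM in KO normoxia libraries. Its WT levels were 32.9, 44.5 and 41.2 CPM in WT hypoxia libraries, against 71.2, 98.9 and 60.3 CPM in WT normoxia libraries. No hypoxia library reached a normoxia library in either genotype. Ndufa4 fell in WT cells (-0.96 ± 0.16, adjusted p = 0.000673), the largest called decrease of any member in that comparison, and gave -0.29 ± 0.16, adjusted p = 0.178 in KO cells, where it was called lower with the length offset (-0.33 ± 0.12, adjusted p = 0.0496). Cox8a, the ubiquitous form of subunit VIII, had 99.3, 102.8 and 100.4 CPM in KO hypoxia libraries, against 124.8, 119.7 and 119.0 CPM in KO normoxia libraries, and 99.5, 107.6 and 93.4 CPM in WT hypoxia libraries, against 133.7, 158.1 and 110.9 CPM in WT normoxia libraries. It fell in WT cells (-0.42 ± 0.10, adjusted p = 0.0082), and the KO value was -0.27 ± 0.10, adjusted p = 0.0681. Cox6a1 and Cox6c, both small subunits made in most tissues, were also called lower in WT cells, at -0.45 and -0.47, and lost the call without WT hypoxia replicate 1 or 3 (adjusted p from 0.0505 to 0.0702).

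Cox7a1 (ENSMUSG00000074218, chr7:30184144-30186078), the isoform of subunit VIIa typical of heart and skeletal muscle, had the fewest counts of the members. It gave 0.153, 0.742 and 0.816 CPM in KO hypoxia libraries, against 0.614, 0.555 and 0.311 CPM in KO normoxia libraries, which is 5 to 25 counts a library. It gave 5.80, 4.65 and 2.90 CPM in WT hypoxia libraries, against 1.30, 0.995 and 0.779 CPM in WT normoxia libraries, or 28 to 172 counts. The WT hypoxia libraries were above all others, and Cox7a1 rose 4.36-fold in WT cells (2.12 ± 0.43, adjusted p = 0.00271). The KO conditions overlapped (0.19 ± 0.51, adjusted p = 0.813). Cox6a2, the muscle-type form of subunit VIa, had 43.2, 42.2 and 36.8 CPM in KO hypoxia libraries, against 66.3, 66.0 and 59.2 CPM in KO normoxia libraries. In WT libraries it had 64.5, 71.9 and 57.2 CPM in WT hypoxia libraries, against 76.6, 90.7 and 63.7 CPM in WT normoxia libraries, with overlap between conditions. Cox6a2 fell in KO cells (-0.65 ± 0.12, adjusted p = 0.00152) and gave -0.25 ± 0.12, adjusted p = 0.141 in WT cells, where it was called lower with the block within genotype (-0.25 ± 0.06, adjusted p = 0.0125). Markers of plasmacytoid dendritic cells, which also express Cox6a2 strongly, summed to 655.4 to 699.8 CPM in KO hypoxia against 1460 to 1633 CPM in KO normoxia, and to 771.3 to 918.5 CPM in WT hypoxia against 1546 to 1577 CPM in WT normoxia libraries. All 4 markers were called lower in KO and 3 of 4 in WT cells, against 15.7% and 16.3% of all genes. The part of these markers in the Cox6a2 result was not tested. The gene span of Cox6a2 also overlaps that of Itgad, by 953 bases.

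Complex V, the ATP synthase, summed to the highest level of the complexes. Of its 16 genes 2 fell in KO (12.5%) and 3 in WT cells (18.8%), against 15.7% and 16.3% of all genes, with medians of -0.09 and -0.29. The calls centred on the c subunit, whose ring turns in the membrane and which 3 genes (Atp5g1, Atp5g2 and Atp5g3) encode as the same mature protein. Atp5g1 had 16.2, 22.5 and 18.4 CPM in KO hypoxia libraries, against 28.7, 26.6 and 26.7 CPM in KO normoxia libraries. It had 17.9, 18.4 and 19.9 CPM in WT hypoxia libraries, against 33.6, 39.1 and 23.7 CPM in WT normoxia libraries. Atp5g1 fell in KO (-0.52 ± 0.16, adjusted p = 0.0262) and in WT cells (-0.78 ± 0.16, adjusted p = 0.0029), with the KO call lost without KO hypoxia replicate 1 or 3 or KO normoxia replicate 1 or 2 (adjusted p from 0.0581 to 0.113). Atp5g2 had 74.0, 77.0 and 70.5 CPM in KO hypoxia libraries, against 101.3, 105.2 and 96.9 CPM in KO normoxia libraries, and 81.3, 85.0 and 75.5 CPM in WT hypoxia libraries, against 119.3, 126.9 and 96.3 CPM in WT normoxia libraries. It fell with -0.45 ± 0.09, adjusted p = 0.00269 in KO and -0.50 ± 0.09, adjusted p = 0.00139 in WT cells. The third gene, Atp5g3, gave -0.09 ± 0.12, adjusted p = 0.608 in KO and -0.28 ± 0.12, adjusted p = 0.109 in WT cells. Atp5e, a small subunit of the rotor stalk, had 48.7, 65.6 and 59.6 CPM in KO hypoxia libraries, against 68.1, 76.8 and 72.2 CPM in KO normoxia libraries, and 63.4, 61.4 and 53.2 CPM in WT hypoxia libraries, against 81.3, 106.1 and 63.5 CPM in WT normoxia libraries, and was called lower in WT (-0.50 ± 0.16, adjusted p = 0.0348) but not in KO cells (-0.32 ± 0.16, adjusted p = 0.149). The Atp5e call was lost without any WT library other than normoxia replicate 3 (adjusted p from 0.0517 to 0.105). The 8 members outside the ring and the F1 part (Atp5a1, Atp5b, Atp5c1, Atp5d and Atp5e) held no call by group means in either genotype. With block and length offset, 11 of the 16 complex V genes (68.8%) were called lower in WT cells, against 20.3% of all genes.

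**Figure D5:**
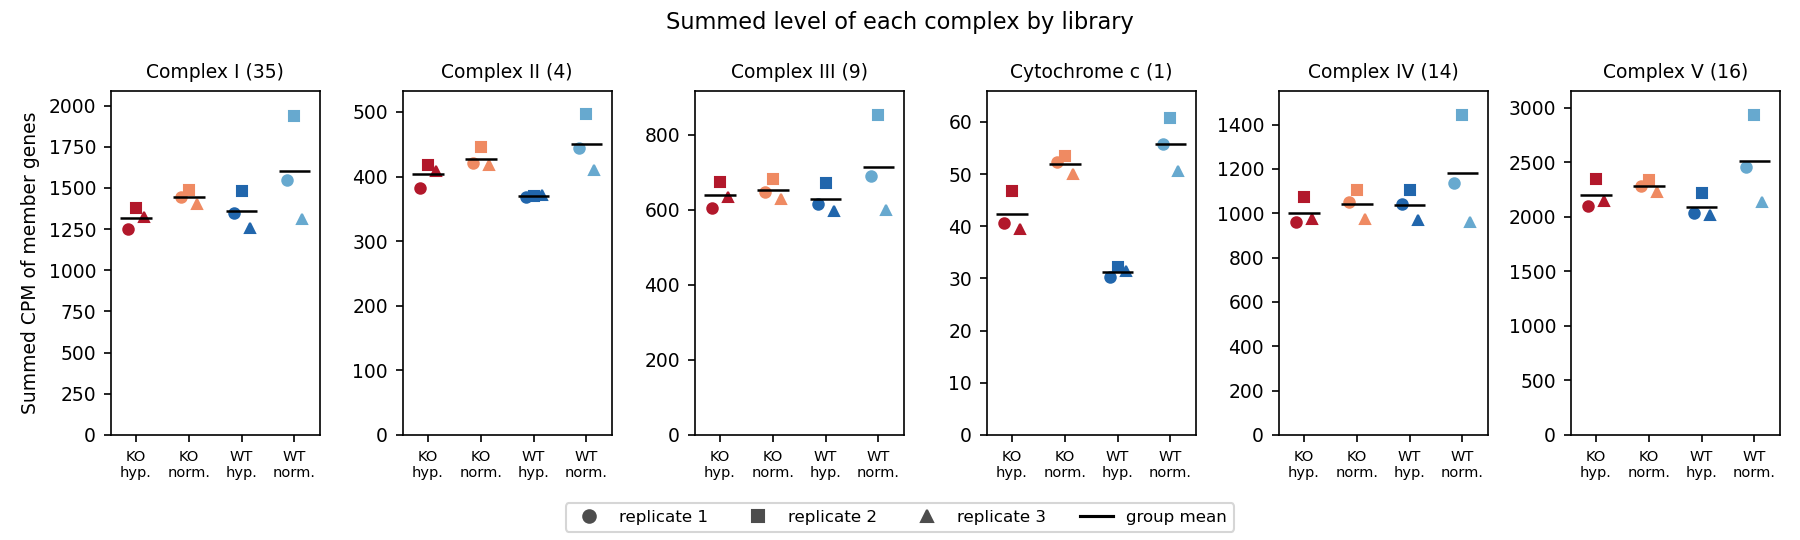
Summed CPM of the members of each complex in each library, with symbols for replicates and a line for the group mean, for KO hypoxia, KO normoxia, WT hypoxia and WT normoxia. WT normoxia replicate 2 is the highest library in every panel, and cytochrome c separates WT hypoxia (30.3 to 32.2 CPM) from the other groups.

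Summed over each complex, hypoxia and normoxia libraries were free of overlap for complex I and cytochrome c in KO cells and for complex II and cytochrome c in WT cells. Complex I summed to 1318 ± 63.5 CPM in KO hypoxia against 1446 ± 44.8 in KO normoxia, and to 1362 ± 115 in WT hypoxia against 1601 ± 316 in WT normoxia libraries (SD, n = 3). Complex V summed to 2198 ± 132 CPM in KO hypoxia against 2282 ± 53.7 in KO normoxia, and to 2093 ± 108 in WT hypoxia against 2511 ± 401 in WT normoxia libraries. The WT normoxia SD was the largest of the 4 groups for every complex, with replicate 2 highest and replicate 3 lowest of that group each time. Complex III summed to 638.0 ± 34.6 CPM in KO hypoxia against 652.9 ± 27.6 in KO normoxia, and to 628.8 ± 38.9 in WT hypoxia against 714.0 ± 128 in WT normoxia libraries. Complex IV summed to 1002 ± 60.7 CPM in KO hypoxia against 1043 ± 66.3 in KO normoxia, and to 1038 ± 68.9 in WT hypoxia against 1180 ± 243 in WT normoxia libraries.

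The second question was how KO and WT cells differed under the same oxygen. Genotype was confounded in part with Y-linked and Xist reads in these contrasts. In hypoxia, 3 members were lower in KO than in WT cells (3.75%) and 1 was higher (1.25%), against 5.12% and 4.72% of all genes, so the members differed no more often than genes at large. Cox7a1 was 7.81-fold lower in KO hypoxia libraries (-2.97 ± 0.46, adjusted p = 0.00222), Ndufv3 was lower (-0.97 ± 0.13, adjusted p = 0.000652), and so was Cox6a2 (-0.66 ± 0.12, adjusted p = 0.00589). Cycs was higher in KO hypoxia libraries (0.44 ± 0.09, adjusted p = 0.00963). For all 4 genes the groups did not overlap (over the 80 members, KO lay wholly below WT for 8 and wholly above for 9, against 16.4% and 15.4% of all genes), and all 4 calls held when any single library was left out. With monocyte and neutrophil levels as covariates only the Cox7a1 call held (-3.16 ± 0.63, adjusted p = 0.0491), with values of -0.87 ± 0.18 for Ndufv3, -0.76 ± 0.18 for Cox6a2 and 0.31 ± 0.12 for Cycs. In libraries with under 10 CPM of Y-linked reads, which leave 1 WT library a condition, none of the 4 passed (Cox7a1 -1.89 ± 0.47, Ndufv3 -0.75 ± 0.13, Cox6a2 -0.53 ± 0.12, Cycs 0.46 ± 0.12). With the length offset, Atp5b, Cyc1, Ndufa4, Sdha and Sdhb joined Cycs as higher in KO hypoxia, against 8.35% of all genes.

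In normoxia no member was called between KO and WT cells by edgeR, where 0.0171% of all genes were called lower and 0.00571% higher. DESeq2 also called 0, and 3 members had an unadjusted edgeR p under 0.05, all lower in KO (3.75% of members, against 9.11% of all genes in either direction). KO libraries lay wholly below WT libraries for 1 member, Cox7a1, and wholly above for 0, against 7.73% and 4.78% of all genes. Values were negative for 77 of the 80 genes, with a median of -0.18 against -0.03 over all genes. This median followed the WT normoxia libraries: it was -0.33 without replicate 3 and -0.02 without replicate 2. It was -0.10 with the length offset and -0.03 with a covariate for Y-linked reads. In libraries with under 10 CPM of Y-linked reads, which leave 1 WT library a condition, it was positive (0.116, against -0.00983 over all genes). Ndufa12, with 23.2, 20.5 and 7.84 CPM in KO normoxia against 9.73, 12.7 and 10.6 CPM in WT normoxia libraries, had the most positive value (0.64 ± 0.39, adjusted p = 0.643), and its KO spread exceeded the difference.

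The third question was whether the response to hypoxia itself differed between genotypes, tested as KO response minus WT response. The partial confounding with Y-linked and Xist reads applied here too. No member was called by edgeR, where 0.314% of all genes were called lower and 0.103% higher. At an unadjusted edgeR p under 0.05 there were 3 lower and 5 higher members, or 10% of members against 10.2% of all genes. DESeq2 called 2, Ndufv3 as lower and Cycs as higher, where it called 1.44% and 0.805% of all genes lower and higher. The difference was -0.80 ± 0.18, adjusted p = 0.0816 for Ndufv3, 0.54 ± 0.13, adjusted p = 0.0991 for Cycs, -1.94 ± 0.67, adjusted p = 0.3 for Cox7a1, 0.66 ± 0.22, adjusted p = 0.287 for Ndufa4 and 0.42 ± 0.13, adjusted p = 0.24 for Cyc1. Ndufv3 and Cycs crossed the threshold under the block within each genotype (adjusted p = 0.0211 and 0.0462). Ndufv3 was also called without WT normoxia replicate 2 (adjusted p = 0.0167), and Cycs and Cyc1 without WT normoxia replicate 3 (both adjusted p = 0.0413). With the length offset Ndufv3 and Cyc1 were called (adjusted p = 0.00921 and 0.0465; Cyc1 0.40 ± 0.09), and with offset and block Ndufv3 and Cox6a2 as lower and Cycs and Cyc1 as higher (adjusted p from 0.00526 to 0.0482). Of the 80 differences 66 were positive, with a median of 0.15 against 0.03 over all genes, and that median was -0.00297 without WT normoxia replicate 2 and 0.31 without replicate 3. By group means, calls in WT cells that were missing in KO cells were not shown to differ between genotypes, and of the 3 in complex III Cyc1 was called in the settings just given.

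Genes related to the chain but outside the naming rule gave a further view, from lists chosen with results of these data known. Of 7 such genes (Ndufab1, Cox4i1, Cox4i2, Ndufa4l2, Usmg5, the ATP synthase inhibitor Atpif1 and Minos1), 2 rose in KO cells (Ndufab1 and Ndufa4l2), and in WT cells these and Cox4i2 rose and Minos1 fell. The rises were 28.6% of the list in KO and 42.9% in WT cells, against 14.5% and 11.4% of all genes. The fall in WT cells was 14.3%, against 16.3% of all genes. The Ndufa4l2 calls rest on few reads, with 10 to 20 counts in KO hypoxia against 1 to 5 in KO normoxia libraries. In WT cells it had 6 to 18 counts in hypoxia against 2 to 5 in normoxia libraries. Cox4i2, the alternative form of complex IV subunit 4 known to be induced by HIF-1 in other cells, had 0.275, 0.419 and 0.653 CPM in KO hypoxia libraries, against 0.168, 0.243 and 0.553 CPM in KO normoxia libraries. In WT cells it had 5.37, 4.29 and 2.57 CPM in WT hypoxia libraries, against 0.145, 0.311 and 0.250 CPM in WT normoxia libraries, with every hypoxia library above every other library of the series. Cox4i2 rose in WT cells (4.07 ± 0.47, adjusted p = 3.69e-05), gave 0.50 ± 0.50, adjusted p = 0.489 in KO cells and was lower in KO than in WT hypoxia libraries (-3.18 ± 0.44, adjusted p = 0.00101). Its common counterpart Cox4i1 had 128.7, 146.0 and 133.3 CPM in KO hypoxia libraries, against 153.8, 158.7 and 139.3 CPM in KO normoxia libraries, and 144.0, 169.6 and 139.6 CPM in WT hypoxia libraries, against 159.7, 221.9 and 143.9 CPM in WT normoxia libraries, and was called in neither genotype. Cox4i2 is among the genes that the study displayed from these samples, so its direction is not independent evidence.

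Assembly factors, which build the complexes without being part of them, were called lower in 18 of 45 cases (40%) and higher in 3 in KO cells, where 15.7% and 14.5% of all genes were, and lower in 18 and higher in 1 in WT cells, where 16.3% and 11.4% of all genes were. Their medians were -0.25 and -0.37. Cox15, which makes the haem of complex IV, fell with -0.68 ± 0.06, adjusted p = 5.74e-06 in KO and -0.57 ± 0.06, adjusted p = 2.95e-05 in WT cells. Cox18, which inserts a mitochondrially made complex IV subunit into the membrane, fell with -0.87 ± 0.12, adjusted p = 0.000154 in KO and -1.08 ± 0.12, adjusted p = 3.24e-05 in WT cells. Higd1a, a small protein that binds complex IV and is known as hypoxia-induced, had 20.7, 26.2 and 30.8 CPM in KO hypoxia libraries, against 14.4, 15.5 and 13.1 CPM in KO normoxia libraries. In WT cells it had 56.5, 51.4 and 35.3 CPM in WT hypoxia libraries, against 16.9, 20.7 and 13.9 CPM in WT normoxia libraries. Higd1a was called higher in KO (0.86 ± 0.19, adjusted p = 0.00498) and in WT cells (1.48 ± 0.19, adjusted p = 0.000116) and lower in KO than WT hypoxia libraries (-0.88 ± 0.19, adjusted p = 0.0126).

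Of 17 genes of the citric acid cycle and pyruvate dehydrogenase, which supply the chain with NADH and succinate, 4 fell and 2 rose in KO cells, against 15.7% and 14.5% of all genes, while 13 fell and 1 rose in WT cells, against 16.3% and 11.4% of all genes. The difference between responses was positive for 16 of the 17, and none was called (edgeR), so this contrast was not shown to differ between genotypes. Of the 12 mitochondrially encoded chain mRNAs tested, 7 fell in KO (58.3%) and 5 in WT cells (41.7%), against 15.7% and 16.3% of all genes. Their medians were -0.67 and -0.57, with no positive value in either. Regulators of chain genes were mixed, with 2 lower (14.3%) and 3 higher (21.4%) of 14 in KO cells, against 15.7% and 14.5% of all genes. In WT cells 3 were lower (21.4%) and 1 higher (7.14%), against 16.3% and 11.4% of all genes.

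The start regions of the genes were set beside these changes. RefSeq (GRCm38.p6) windows of 300 bases, from 250 before to 50 after the annotated start, matched 67 of the 80 members with 72 windows. The ACGTG form of the hypoxia response core, on either strand, was in 26.4% of the 72 windows against 19.6% of 32851 windows of all genes. The core given in the paper also allows GCGTG, which was not searched for. The E-box CACGTG, which contains that core, was in 9.72% against 7.15%. Letters known from factors of respiratory genes were more frequent: GCGCATG, a site of NRF1, was in 19.4% against 3.91%, CCGGAAG, bound by ETS factors such as GABP, in 22.2% against 8.86%, and ATGGCGG, bound by YY1, in 15.3% against 4.05% (both strands searched for each). A match is a description of the letters, not of a bound site. The windows of the members with the largest called changes in WT cells in each direction, with ACGTG on either strand in capitals, were as follows.
Cox7a1: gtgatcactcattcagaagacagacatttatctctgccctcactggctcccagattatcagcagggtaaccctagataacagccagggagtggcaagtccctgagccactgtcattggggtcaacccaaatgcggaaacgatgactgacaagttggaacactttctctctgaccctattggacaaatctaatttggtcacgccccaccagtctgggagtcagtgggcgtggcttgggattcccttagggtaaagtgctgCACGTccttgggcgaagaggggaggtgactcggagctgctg
Ndufv3: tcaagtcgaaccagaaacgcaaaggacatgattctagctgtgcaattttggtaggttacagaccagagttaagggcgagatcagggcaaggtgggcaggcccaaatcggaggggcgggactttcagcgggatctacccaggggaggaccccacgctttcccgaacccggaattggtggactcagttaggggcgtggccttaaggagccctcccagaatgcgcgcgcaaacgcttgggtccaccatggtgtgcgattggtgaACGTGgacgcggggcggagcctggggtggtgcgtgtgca
Ndufa4: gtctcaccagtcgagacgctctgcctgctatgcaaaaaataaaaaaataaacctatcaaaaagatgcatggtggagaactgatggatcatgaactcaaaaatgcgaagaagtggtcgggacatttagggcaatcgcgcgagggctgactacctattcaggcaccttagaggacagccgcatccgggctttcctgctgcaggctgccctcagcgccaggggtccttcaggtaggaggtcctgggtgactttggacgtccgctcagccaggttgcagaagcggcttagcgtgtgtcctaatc
Cycs: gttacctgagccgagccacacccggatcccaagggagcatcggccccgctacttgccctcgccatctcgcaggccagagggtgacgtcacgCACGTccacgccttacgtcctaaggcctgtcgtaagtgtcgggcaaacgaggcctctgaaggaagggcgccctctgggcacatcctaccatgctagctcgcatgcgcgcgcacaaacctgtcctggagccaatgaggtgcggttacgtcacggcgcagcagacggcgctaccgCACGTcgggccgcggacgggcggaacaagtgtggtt
These lie at chr7:30183921-30184220 (plus strand), chr17:31519865-31520164 (plus strand), chr6:11907401-11907700 (minus strand) and chr6:50566520-50566819 (minus strand). Cox7a1 and Ndufv3, both higher in WT hypoxia, hold 1 ACGTG core each, 9 to 13 and 11 to 15 bases from the start. Cycs, lower in WT hypoxia, holds 2 ACGTG cores, 1 of them 14 to 18 bases from the start. Ndufa4 holds no ACGTG. Each of these windows, that of Ndufa4 included, holds the GCGTG form on either strand, which is not marked, so the windows are not told apart by the wider core.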

How the data were processed

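The authors sequenced total RNA of bone marrow B cells and deposited 1 table of whole-number read counts per Ensembl gene, which is not normalised. The submitters' processing notes name CASAVA, Bowtie 0.12.2 and mm10; for the counter, the annotation release and strand the answer is not given in the sources used here. Symbols, coordinates and lengths came from GENCODE M21 (GRCm38). Members were taken by symbol alone, but this gene family and the related lists were chosen with earlier results of these data known. From the deposited counts, edgeR 4.0.16 (R 4.3.3, limma 3.58.1) gave TMM-scaled CPM and robust quasi-likelihood tests of 4 group means over all 12 libraries, after filterByExpr (17506 genes kept; the 29477 left out held 0.0738% of counts). The common biological coefficient of variation was 0.164. P-values were adjusted by Benjamini-Hochberg over all genes, at 0.05. Full values were given for the 3 called genes a complex with the smallest adjusted p in the WT response, the 4 in each other comparison, and members moving against their complex. Ndufa12 and Ndufs3 were added after their values were seen.

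Same-numbered libraries were compared by the correlation of their deviations from group means: 0.196, 0.36 and 0.434 between WT conditions, and 0.182, -0.0391 and 0.12 between KO conditions, so a shared deviation was seen throughout for WT numbers only. The block within each genotype also entered KO libraries, whose blocked values therefore pair nothing known. Alternatives covered scaling, filters, samples in the fit, the replicate block, DESeq2 1.42.0, Y-linked and marker covariates, and each library left out. The block within each genotype and the transcript-length offset were chosen after seeing the data. Scripts were tested on simulated counts.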

Additional observations from a re-analysis of the deposited data

Results flagged for a closer look

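Cox4i2, the alternative isoform of complex IV subunit 4, was, of the members and the lists of related genes, the one whose response to hypoxia differed between genotypes by the test of that difference. KO response minus WT response was -3.57 ± 0.70 on the log2 scale (edgeR quasi-likelihood, Benjamini-Hochberg adjusted p = 0.0457), with responses of 0.50 ± 0.50 in KO and 4.07 ± 0.47 in WT cells. Levels were 0.275, 0.419 and 0.653 CPM in KO hypoxia libraries, 0.168, 0.243 and 0.553 CPM in KO normoxia libraries, 5.37, 4.29 and 2.57 CPM in WT hypoxia libraries and 0.145, 0.311 and 0.250 CPM in WT normoxia libraries. The difference ran from -3.91 to -2.58 over the alternatives, and its call was lost under 12 of 24 of them, with adjusted p between 0.00021 and 1.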

How the results depend on the processing

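No called value changed sign. Members called in the response to hypoxia (10 lower and 1 higher in KO cells, 21 lower and 3 higher in WT cells) moved most. With only the compared groups in the fit, 25 fell and 3 rose in KO cells and 11 fell in WT cells. With the replicate block over all groups, 15 fell and 3 rose in KO and 35 fell in WT cells. With the block within each genotype, 23 fell and 4 rose in KO and 42 fell in WT cells. With the length offset, 18 fell and 3 rose in KO and 32 fell in WT cells. With length offset and block, 24 fell and 5 rose in KO and 42 fell and 6 rose in WT cells. Libraries with few Y-linked reads, which leave 1 WT library a condition, gave member medians of -0.103 in KO and -0.0988 in WT cells. Over all genes these were 0.0209 and -0.0097. A covariate for Y-linked reads gave 16 lower in KO and 30 in WT cells (16.6% and 17.0% of all genes). Monocyte and neutrophil covariates gave 3 lower in KO and 14 in WT cells (11.1% and 13.6% of all genes). DESeq2 gave 10 lower and 2 higher in KO (13.9% and 13.9% of all genes), and 24 lower and 3 higher in WT cells (14.6% and 12.5%).

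Leaving out each library, the KO count ranged over 3 to 17 lower and 1 to 3 higher, and the WT count over 12 to 58 lower and 3 to 6 higher. The shares of all genes called without each library are not given here. The lowest KO counts came without KO hypoxia replicate 1 or KO normoxia replicate 2 (3 each) and without KO hypoxia replicate 3 or KO normoxia replicate 1 (4 each), and the highest without WT normoxia replicate 2 (17). Of the calls, 3 of 10 lower in KO and 12 of 21 lower in WT cells held with each library left out. In KO minus WT hypoxia, 3 lower and 1 higher became 0 and 0 with few Y-linked reads and 1 and 0 with the marker covariates. The higher count was 2 with RLE factors (4.51% of all genes), TMM without immunoglobulin and mitochondrial genes (4.87%), the CPM filter (6.21%) or DESeq2 (8.03%). It was 3 with compared groups only (6.8%) or the replicate block (6.26%), and 6 with the length offset (8.35%). With each library left out it ranged over 1 to 5. Same-numbered KO and WT libraries did not deviate together, so the block there pairs nothing. KO response minus WT response had 0 calls by group means. It had 1 lower without a low-count filter (0.43% of all genes). With DESeq2, the length offset or the block within each genotype it had 1 lower (0.665% to 1.44%) and 1 higher (0.337% to 0.805%). Block and length offset gave 2 and 2 (1.03% and 0.878%). With each library left out there were 0 to 1 lower and 0 to 2 higher. The cause of these shifts was not tested.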
